A study of Mus musculus with 12 samples.

Results

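The vehicle control kidneys were the 4 libraries that carry the treatment label Control, long-term, out of 12 kidney libraries in the series, and each library came from 1 mouse. All 4 were male mice of the inbred strain C57BL/6J, aged 60 days at the start, which were injected once a day for 28 days into the peritoneal cavity with 200 µL of saline containing 2% Tween 80 and no cannabidiol. The control state described here therefore includes daily vehicle injections, and uninjected mice were not analysed here. Pieces of kidney of 15 to 30 mg were homogenised, poly(A) RNA was selected, and directional libraries were sequenced as read pairs of 150 bases. The share of cortex and medulla in each piece and the hour at which each mouse was killed are not stated in the sources used here. The other 8 libraries, from mice given cannabidiol, were not used. With 1 group there was no comparison between treatments, and all values below describe these 4 mice.

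The kidney filters plasma through the podocyte-covered capillaries of the glomerulus and then reclaims most of the filtrate. The proximal tubule takes back glucose, amino acids, phosphate and bicarbonate, makes glucose and secretes organic ions, and it forms most of the cortex. The loop of Henle builds the osmotic gradient of the medulla, the distal convoluted and connecting tubules adjust sodium, magnesium and calcium, and the collecting duct sets water and acid excretion through its principal and intercalated cells. Whole-kidney RNA mixes all of these cells, so that fewer cells of a type and less RNA per cell cannot be told apart in any value below.

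The deposited files held counts for 57180 genes, and the total counted on genes was 23532088 in replicate 1, 19673695 in replicate 2, 21106306 in replicate 3 and 17946614 in replicate 4. Levels are given as CPM, counts relative to the library total, after TMM normalisation, which adjusts the totals for differences in makeup. Levels of different genes were compared only as RPKM, the same value per kilobase of annotated exons. At a mean of at least 1 CPM, 14572 genes were detected, of which 12715 were nuclear protein-coding genes, 991 were long non-coding RNA genes and 564 were pseudogenes. The median detected gene stood at 2.95 RPKM. The male sex of the mice was visible in every library. Ddx3y, an RNA helicase gene of the Y chromosome, had 80.4, 111, 77.5 and 78.0 CPM in replicates 1 to 4, and Xist, the RNA that silences the second X chromosome of females, had between 0.240 and 0.387 CPM.

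The libraries differed in the RNA that did not come from nuclear messenger genes. Genes of the mitochondrial chromosome took 12.8% of the counts in replicate 1, 5.77% in replicate 2, 17.5% in replicate 3 and 13.5% in replicate 4. Replicate 2 thus had the lowest mitochondrial share of the 4. A copy of the 18S ribosomal RNA gene, Rn18s-rs5, which was chosen after its values were seen, took 5.66%, 8.80%, 6.04% and 4.85% of the counts in the same order and was highest in replicate 2. The 95% Wilson intervals of these shares were at most 0.0325 percentage points wide, and they cover counting error only. Among nuclear genes without ribosomal RNA, the 10 most counted genes took 9.56%, 9.09%, 10.5% and 9.72% of the counts, and the count needed to reach 50% of them was 775, 787, 746 and 806 genes.

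The most abundant nuclear mRNA was that of Kap (ENSMUSG00000032758), the kidney androgen-regulated protein of the proximal tubule. It had 19054, 20283, 19225 and 16312 CPM in replicates 1 to 4, or 16377 ± 1482 RPKM (SD, n = 4). The 4 mice lay close together, with the highest only 1.24-fold above the lowest. The gene lies on the minus strand of chromosome 6 (6:133826814-133830725, GRCm39). The RefSeq table of promoter windows, which is in build GRCm38.p6 and spans 250 bases before to 50 bases after each start, held 1 window for Kap. The 120 bases before its start (chr6:133853668-133853787, minus strand) are shown because this was the strongest nuclear message of the organ, with the TATA motif TATAAA in capitals.
Kap: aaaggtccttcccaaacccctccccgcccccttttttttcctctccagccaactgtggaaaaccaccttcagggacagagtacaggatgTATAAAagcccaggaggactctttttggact
The motif began 31 bases before the start. Counted on both strands, TATAAA was present in the windows of 4 of the 10 most abundant nuclear protein-coding genes (40%, Fth1, Kap, Miox and S100g) and of 15.7% of the 27025 genes in the table, a description without a test. These shares count a match anywhere in the window. It began 40 bases before the start in Miox, 124 bases before it in Fth1, as the reverse complement, and at the start itself in S100g.

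Gpx3, which encodes the plasma glutathione peroxidase that the kidney secretes, ranked second with 6881 ± 974 RPKM (SD, n = 4) and 20272, 17205, 23772 and 23028 CPM in replicates 1 to 4. It had more counts than Kap in replicates 1, 3 and 4, and its rank below Kap per length comes from its longer exons. The ferritin heavy chain gene Fth1 followed at 1168 ± 163 RPKM. S100g and Klk1, which encode the calcium-binding calbindin-D9k and a kallikrein of the connecting tubule, had 1081 ± 184 and 1002 ± 231 RPKM. Slc27a2, a fatty acid transport and activation gene, had 1000 ± 103 RPKM and was the last of 6 nuclear protein-coding genes above 1000 RPKM.

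The next 4 genes were enzymes. Pck1 of gluconeogenesis had 872 ± 164 RPKM, Miox, which opens the ring of myo-inositol, 844 ± 95.9 RPKM, the peroxiredoxin gene Prdx5 738 ± 155 RPKM and the sorbitol dehydrogenase gene Sord 730 ± 108 RPKM. Each gap between neighbours from Fth1 to Sord was smaller than the larger SD of the 2 genes, so the order among these genes is not fixed by 4 mice. In the 100 most abundant nuclear protein-coding genes there were 11 of 91 detected nuclear genes of oxidative phosphorylation, led by Atp5f1b, 8 of 81 ribosomal protein genes, led by Rplp1, and 7 of 289 solute carrier genes, led by Slc27a2 and Slc34a1. A further 6 were cytochrome P450 genes out of 42 detected.

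These ranks depend on the length assigned to a gene. The annotation release used here lists many long transcript models, and the union of exons was 1.65 times the length of the canonical transcript for the median nuclear protein-coding gene. With canonical lengths, an alternative chosen after the lengths were seen, Kap, Gpx3 and Fth1 kept the first 3 ranks, and 5 of the 10 most abundant genes were shared. Fxyd2, a small regulator of the sodium pump, was chosen after its values were seen and moved from rank 21 to rank 4. Klk1 moved from rank 5 to rank 17. Of the 100 most abundant genes, 70 were shared by both lengths. With canonical lengths these held 16 genes of oxidative phosphorylation, 12 ribosomal protein genes, 4 solute carrier genes and 4 cytochrome P450 genes, so the makeup also changed.

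**Figure D1:**
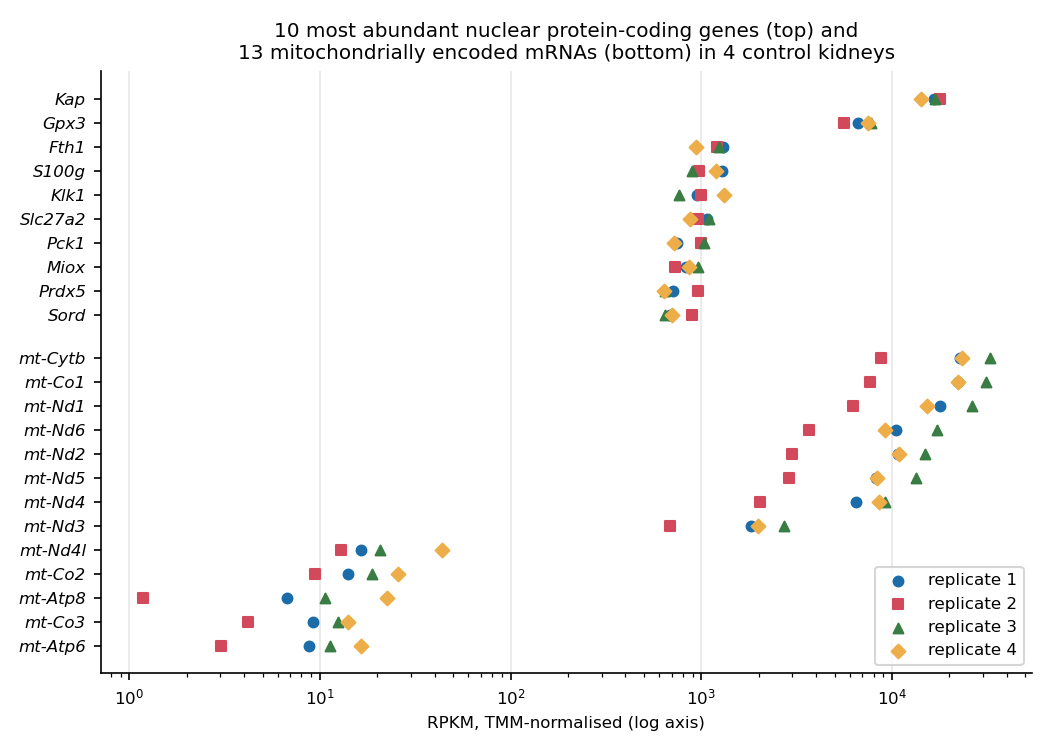
RPKM (log axis) of the 10 nuclear protein-coding genes with the highest mean, above, and of the 13 mitochondrially encoded mRNAs, below, with 1 symbol for each of the 4 control mice. Kap has nearly equal values in the 4 mice, while replicate 2 has the lowest value of each mitochondrial mRNA.

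Of the 20 genes above 1000 RPKM, most were not nuclear protein-coding genes. The mitochondrial chromosome encodes 13 subunits of the respiratory chain, and 8 of them had a mean above 1000 RPKM. mt-Cytb had 21821 ± 9810 RPKM and mt-Co1 20762 ± 9700 RPKM (SD, n = 4), each above the mean of Kap per union length. In replicate 2 Kap was above both, with 17746 RPKM against 8728 and 7673 RPKM, and with its canonical length Kap had a mean of 26476 RPKM, above both means. In CPM, mt-Co1 had 34159, 11855, 48075 and 34219 in replicates 1 to 4, so that replicate 2 was lowest and replicate 3 highest. The other 5 genes had low values. mt-Co2 had 16.9 ± 6.90 RPKM, mt-Atp6 9.89 ± 5.62, mt-Co3 9.93 ± 4.33, mt-Nd4l 23.4 ± 13.9 and mt-Atp8 10.3 ± 9.04.

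Copies of mitochondrial sequence occur in the nuclear genome, and their part in these values was not tested. Of all stretches of 100 bases in mt-Co2, 99.5% occur without a mismatch in the annotated transcript of a pseudogene on chromosome 1, Gm28661, which was chosen after its values were seen. The share found in the transcripts of any other gene was 99.5% for mt-Atp6, 99.9% for mt-Co3, 98.5% for mt-Nd4l, 60.8% for mt-Nd4, 30.8% for mt-Co1 and 3.19% for mt-Nd2, and 0% for mt-Cytb, mt-Nd1, mt-Nd5 and mt-Nd6. It was also 98.8% for mt-Nd3, which had 1801 ± 844 RPKM, and 0% for mt-Atp8, so it does not order all 13 genes. mt-Atp8 overlaps mt-Atp6, and mt-Nd4l overlaps mt-Nd4, and reads in such an overlap are not assigned to either gene. mt-Nd4 itself had 9053 CPM, and mt-Nd5 and mt-Nd6, which overlap on opposite strands, had 14935 and 5258 CPM. The part of overlap in these levels was not tested. The deposited counts leave out reads that align to more than 1 place, so the levels of mitochondrial genes with such copies, and of the copies themselves, are uncertain.

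The marker lists of the nephron were compared per length. The 10 shared proximal tubule genes had the highest median of the tubular segments, 142 RPKM, against 75.7 RPKM for the 9 early and 73.2 RPKM for the 5 late proximal genes. The thick ascending limb list had a median of 36.0 RPKM, the connecting tubule 25.5 RPKM, the intercalated genes shared by both types 17.9 RPKM, intercalated type B 6.88 RPKM, the distal convoluted tubule 6.49 RPKM, principal cells 6.13 RPKM, intercalated type A 5.81 RPKM and podocytes 4.30 RPKM. Thin limb genes had a median of 0.636 RPKM and macula densa genes 0.0861 RPKM. A median of markers compares the chosen genes and not the number of cells. Ordered by their medians in each mouse, the shared proximal list lay above both other proximal lists in all 4 mice, and the late proximal list lay above the thick ascending limb in all 4. The early and the late list did not differ beyond their spread, with the early list higher in 2 of 4 mice. From the distal convoluted tubule to the type A cells, neighbouring lists also overlapped between mice. With the longest or the canonical transcript as length, the first 6 tubular lists kept their order, and principal cells moved above type B cells and the distal convoluted tubule.

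**Figure D2:**
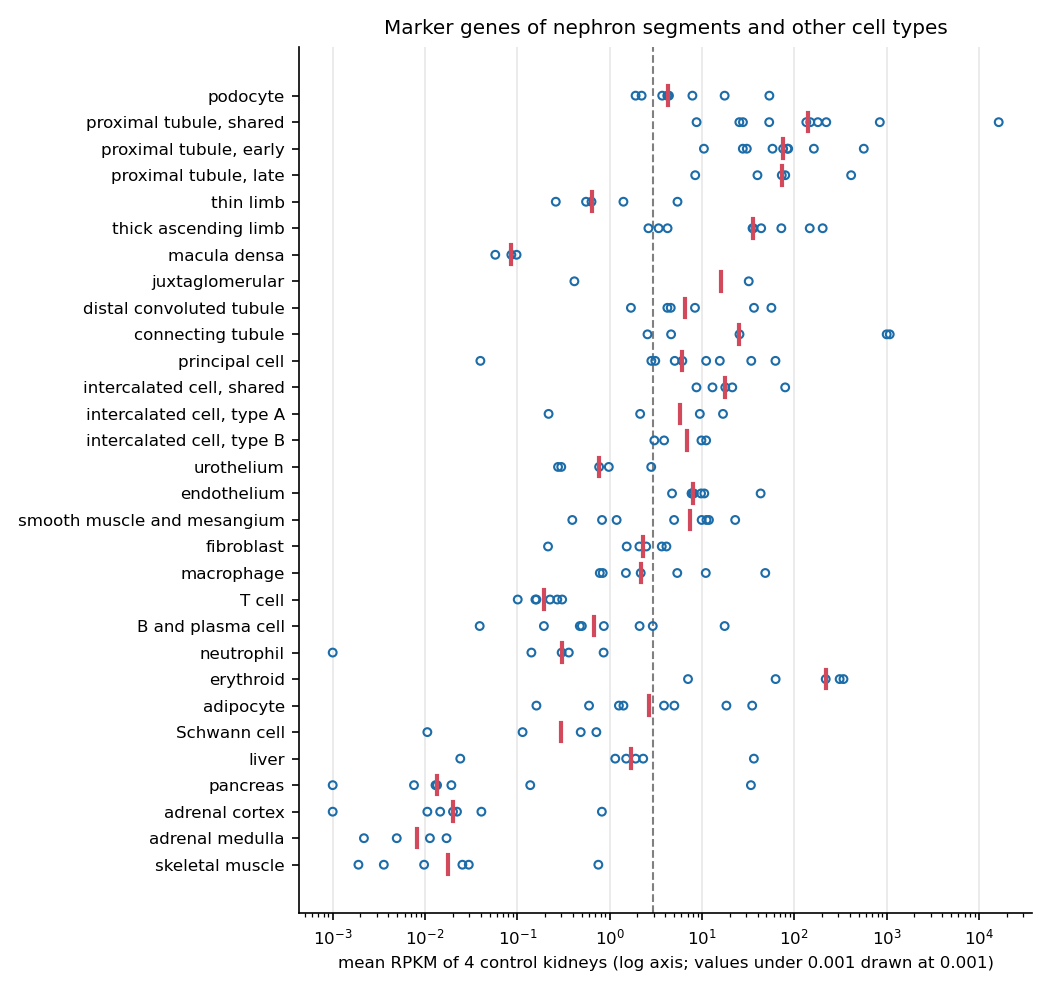
Mean RPKM of each marker gene over the 4 control kidneys (log axis), with 1 row per list, a red bar at the list median and a dashed line at the median detected gene, 2.95 RPKM. The proximal tubule lists lie highest of the tubular segments, and the lists of pancreas, adrenal gland and skeletal muscle lie lowest.

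In the proximal tubule, the endocytic receptor genes Lrp2 and Cubn, whose proteins megalin and cubilin retrieve filtered protein, had 135 ± 19.0 and 25.4 ± 7.94 RPKM. The water channel gene Aqp1 had 180 ± 15.2 RPKM, and Ggt1, a brush border enzyme of glutathione breakdown, 222 ± 26.0 RPKM. Slc34a1, the main phosphate carrier, was the most abundant early gene at 566 ± 66.7 RPKM, with 3135, 3366, 3745 and 4095 CPM in replicates 1 to 4. Slc5a2, the high-capacity glucose carrier of the early tubule, had 75.7 ± 5.71 RPKM and 220, 223, 197 and 237 CPM. Slc7a13, an aspartate and glutamate carrier of the last proximal part, led the late list at 413 ± 50.2 RPKM.

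The early list also holds Slc22a6 and Slc22a8, the organic anion carriers that bring drugs and urate into the cell. They had 163 ± 30.3 and 84.1 ± 18.6 RPKM, lie close together on chromosome 19, and both were lowest in replicate 2. The motif GTTAAT, the core of the site that the proximal tubule factor HNF1 binds, was present on either strand in the windows of 5 of the 19 proximal tubule genes with a window (26.3%, Miox, Slc3a1, Slc22a6, Slc22a8 and Slc34a1), and in those of 8.24% of all 27025 genes. A match is not a binding site, and no test was made. The 120 bases before the start of the 3 early genes are shown because these held the motif within 100 bases of the start (RefSeq, GRCm38.p6, all plus strand), with GTTAAT or its reverse complement ATTAAC in capitals. They lie at chr13:55399528-55399647 for Slc34a1, chr19:8617876-8617995 for Slc22a6 and chr19:8593062-8593181 for Slc22a8.
Slc34a1: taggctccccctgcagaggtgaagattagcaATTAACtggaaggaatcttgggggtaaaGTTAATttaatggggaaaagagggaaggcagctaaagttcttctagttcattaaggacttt
Slc22a6: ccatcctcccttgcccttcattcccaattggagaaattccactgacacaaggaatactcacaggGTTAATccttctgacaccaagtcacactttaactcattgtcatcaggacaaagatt
Slc22a8: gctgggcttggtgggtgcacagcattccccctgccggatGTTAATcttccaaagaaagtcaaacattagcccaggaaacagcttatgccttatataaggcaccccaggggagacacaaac
The motif began 89 and 61 bases before the start in Slc34a1, 56 bases before it in Slc22a6 and 81 bases before it in Slc22a8.

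In the thick ascending limb, Umod, which encodes uromodulin, the most abundant protein of normal urine, had 203 ± 37.7 RPKM and 640, 605, 408 and 591 CPM in replicates 1 to 4. Replicate 3 was lowest. Slc12a1, the sodium, potassium and chloride carrier that loop diuretics block, had 147 ± 39.0 RPKM and 825, 1164, 646 and 744 CPM, highest in replicate 2. Egf had 72.4 ± 8.73 RPKM and the potassium channel gene Kcnj1 36.0 ± 3.40 RPKM. Slc12a3, the thiazide-sensitive carrier of the distal convoluted tubule, had 56.5 ± 12.0 RPKM and 770, 679, 508 and 857 CPM, and Pvalb, which marks the early part of that segment, 4.22 ± 1.79 RPKM. In the connecting tubule, Calb1, the calcium-binding calbindin-D28k, had 214, 246, 98.1 and 166 CPM (25.5 ± 9.09 RPKM). It was lowest in replicate 3, as were Umod and Slc12a3.

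Among principal cell genes, Aqp3 of the basolateral membrane was the most abundant at 62.5 ± 15.0 RPKM, and Aqp2, the water channel that vasopressin moves to the surface, had 15.6 ± 8.06 RPKM. Avpr2, the vasopressin receptor of these cells, had between 0.0505 and 0.258 CPM and did not pass 1 CPM. Avpr2 overlaps L1cam (28.7 CPM) and Arhgap4 (3.47 CPM) on the opposite strand. As the strand setting of the counting is not stated, its level is uncertain. Hsd11b2, which protects the mineralocorticoid receptor from glucocorticoids, had 34.2 ± 2.90 RPKM. The proton pump subunit gene Atp6v1g3 led the shared intercalated genes at 79.7 ± 14.2 RPKM. Slc4a1, the chloride and bicarbonate exchanger of type A cells, had 9.48 ± 2.83 RPKM, and Slc26a4, the exchanger pendrin of type B cells, 9.87 ± 1.60 RPKM. Slc4a1 is also a red cell gene, and red cells as its source were not tested. It had 64.8, 49.4, 34.7 and 36.7 CPM in replicates 1 to 4. The summed level of the erythroid list described below was 542, 1214, 1252 and 751 RPKM.

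In the glomerulus, Podxl, which charges the surface of podocytes, had 53.7 ± 3.57 RPKM and is also made by endothelium. Nphs1, which encodes the slit membrane protein nephrin, had 3.71 ± 0.482 RPKM. All 8 podocyte genes were above 5 CPM and 0 differed by 2-fold between mice, where 4.04% of all genes above that limit did. Ren1, the renin gene of juxtaglomerular cells, had 78.7, 33.9, 46.4 and 53.6 CPM (32.1 ± 11.4 RPKM), 2.32-fold from the lowest to the highest mouse. The macula densa, a small plaque of cells at the end of the thick limb, was at the edge of detection: of its 3 genes only Nos1 passed a mean of 1 CPM, with between 0.625 and 1.75 CPM.

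Other cell types followed. The endothelial list had a median of 8.09 RPKM and the list of smooth muscle and mesangium 7.45 RPKM, led by Plvap of fenestrated capillaries (43.2 ± 6.69 RPKM) and the myosin light chain gene Myl9 (22.9 ± 2.97 RPKM). Fibroblast genes had a median of 2.30 RPKM and macrophage genes 2.17 RPKM. Cd74, the invariant chain of antigen presentation, was the most abundant gene of the macrophage list at 48.5 ± 5.80 RPKM, while Adgre1, the F4/80 antigen, had 0.841 ± 0.131 RPKM. No T cell gene of 6 passed a mean of 1 CPM, and Ly6g of the neutrophil list had 0 counts in all 4 libraries, where 3 counts stand for 0.129, 0.144, 0.151 and 0.164 CPM in replicates 1 to 4. The erythroid list had a median of 219 RPKM, with blood cells in the vessels of the piece as a source that was not tested. Hba-a1 had 195, 452, 451 and 225 CPM, and Hbb-bs 218, 265, 495 and 452 CPM. The haemoglobin genes have near-identical copies, and counts between Hba-a1 and Hba-a2 are uncertain.

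Markers of neighbouring organs were looked at next. In the adrenal cortex list Star alone passed a mean of 1 CPM, Cyp11b2 had 0 counts in all 4 libraries, and the summed level was 0.981, 0.968, 0.974 and 0.805 RPKM in replicates 1 to 4. Star took 88.4% of that sum. It overlaps Ash2l (30.6 CPM) on the opposite strand, and the strand setting of the counting is not stated, so its level is uncertain. None of 4 adrenal medulla genes and none of 6 skeletal muscle genes passed a mean of 1 CPM. In the pancreas list Cela1 took 99.4% of the summed level, at 33.9 ± 4.40 RPKM, Prss2 had 0 counts and the other 5 genes were below 1 CPM in the mean. The source of the Cela1 message was not tested. In the liver list 5 of 6 genes passed a mean of 1 CPM. Ttr took 84.1% of the summed level, with 40.7, 77.5, 106 and 54.6 CPM, and Alb had 7.35, 12.2, 8.73 and 10.7 CPM. Of 4 Schwann cell genes 2 passed a mean of 1 CPM, led by Mbp at 0.718 ± 0.123 RPKM.

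Variation between mice was small for most genes. Over the 10852 genes with a mean of at least 5 CPM, the median SD of log2 CPM (prior count 2) was 0.175, and 50% of the genes lay between 0.117 and 0.252. Counting alone would give a median SD of 0.0608. The common biological coefficient of variation was 15.1%. In 438 genes (4.04%) the highest mouse was at least 2-fold above the lowest, and in 38 genes at least 4-fold. This share of 4.04% is the background for each list below. It was 3.08% of nuclear protein-coding genes, 11.3% of long non-coding RNA genes, 37.2% of pseudogenes and 88.2% of mitochondrial genes. By level it was 8.93% of genes between 5 and 10 CPM, 3.81% between 10 and 20 CPM and 2.63% between 20 and 50 CPM. It was 2.54% between 50 and 100 CPM and 3.03% between 100 and 1000 CPM. At 1000 CPM or more it was 14.9%, or 10 of 67 genes, among them mitochondrial mRNAs such as mt-Co1 and mt-Nd1. At the limit, Ddit4 had a difference of 0.9997 on the log2 scale and was left outside, and Ucp2, chosen after its values were seen, had 1.001 and was inside.

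The 438 genes did not spread evenly over the mice. When each gene was divided at the widest gap between its 4 ordered values, 374 genes (85.4%) had 1 mouse apart from the others. Replicate 2 was the lowest in 120 genes and the highest in 59, and replicate 4 was the lowest in 85 and the highest in 38. Replicate 3 was the lowest in 25 and the highest in 14, and replicate 1 in 11 and 22. Without replicate 2, 173 genes were past 2-fold (1.60% of 10801), without replicate 4 there were 231 (2.13%), and without replicates 1 or 3 there were 340 and 337. The first 3 principal components held 54.0%, 27.7% and 18.3% of the variance, and replicate 2 lay farthest from the others on the first. The mitochondrial and 18S shares of replicate 2 stood apart as well, and their part in its distance was not tested.

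**Figure D3:**
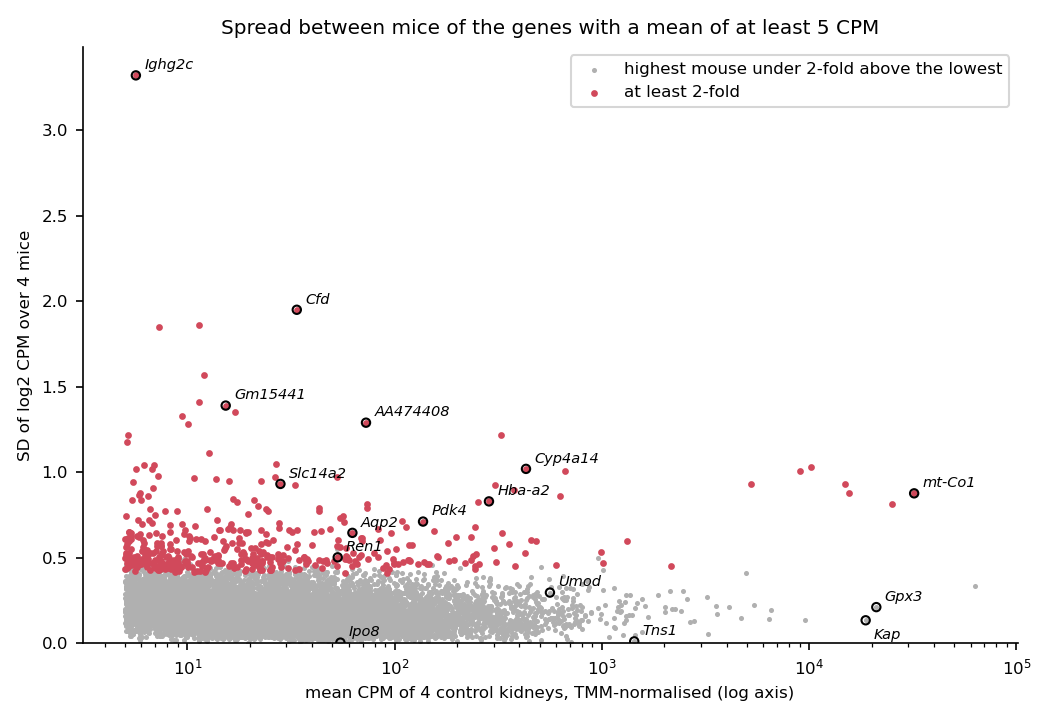
SD of log2 CPM over the 4 control mice (vertical axis) against mean CPM (log axis) for the 10852 genes with a mean of at least 5 CPM, with red points for the 438 genes whose highest mouse was at least 2-fold above the lowest and circles around named genes. Kap and Gpx3 lie at the right, with an SD of 0.135 for Kap and a larger one for Gpx3, and Ighg2c has the largest SD.

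The gene with the largest spread was Ighg2c, the constant part of an immunoglobulin heavy chain. Replicate 1 had 22.1 CPM, and the others had 0.0481, 0.252 and 0.164 CPM, so that the gene is above the 5 CPM limit only through replicate 1. Igkc, the light chain constant part, had 25.4, 3.41, 3.94 and 4.76 CPM and Igha 12.6, 4.04, 2.32 and 3.56 CPM, both highest in replicate 1. Jchain, which joins antibody units, was below the 5 CPM limit and had 5.03, 1.06, 0.707 and 1.91 CPM. Of the 3 genes of the B and plasma cell list above 5 CPM, 2 were past 2-fold, Igkc and Igha. Both are above that limit only through replicate 1 and leave the set without it, and over the other 3 mice they differed 1.38-fold and 1.71-fold. Not all genes of the list had this order. The third, Ighm, another heavy chain, had 6.19, 4.90, 6.71 and 4.27 CPM and was highest in replicate 3. Mzb1 of plasma cells had 0.172, 0.192, 0.151 and 0.602 CPM and was highest in replicate 4. The B cell genes Cd79a and Ms4a1 stayed below 1 CPM in all mice.

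Genes of fat cells varied next, and replicate 3 stood below the others. Cfd, the adipocyte protease adipsin, had 46.7, 55.3, 2.93 and 30.0 CPM in replicates 1 to 4, Adipoq, the hormone adiponectin, 10.7, 19.4, 1.06 and 14.6 CPM, and Cidec, a lipid droplet protein, 15.2, 15.4, 1.67 and 15.7 CPM. Hp, the haemoglobin-binding haptoglobin, was also lowest in replicate 3 with 6.58, 11.3, 0.656 and 10.7 CPM. All 4 of the adipocyte genes above 5 CPM were past 2-fold, and 0 were without replicate 3. The summed level of the 8 genes was 78.0, 98.9, 13.3 and 72.6 RPKM, with Cfd as the most abundant. Ucp1, the uncoupling protein of brown fat, had 0, 3.36, 1.31 and 6.29 CPM. The kidney lies in fat, and how much of it each piece held was not measured.

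A further group was high in replicates 1 and 3 and low in replicates 2 and 4. Cyp4a14, a fatty acid hydroxylase and a target of the fatty acid sensor PPAR alpha, had 727, 216, 598 and 180 CPM. In the list of 8 such targets 4 were past 2-fold (50%), among them Cyp4a14, Angptl4, which inhibits lipoprotein lipase (117, 52.6, 115 and 80.9 CPM), and Ehhadh of peroxisomal fatty acid oxidation (1390, 659, 1194 and 709 CPM). Without replicate 1 the count was 3 and without replicate 2 it was 2. Cyp4a10 was likewise highest in replicates 1 and 3 at 1272, 664, 1195 and 693 CPM, 1.91-fold from the lowest to the highest mouse. The summed level of the list was 1727, 830, 1558 and 893 RPKM. Of the 8 genes, replicate 1 was highest in 7 and replicate 3 in 1, against 22.5% and 18.3% of all detected genes. Cpt1a was nearly equal in replicates 3 and 4, with 491, 327, 462 and 459 CPM.

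Pdk4, which holds back glucose oxidation when fat is burned, had 246, 102, 121 and 77.2 CPM and was highest in replicate 1. Fasn, the fatty acid synthase, ran the other way from the PPAR alpha targets with 57.4, 111, 54.2 and 119 CPM, and Scd1, the desaturase, had 167, 350, 209 and 252 CPM. These were the 2 of 6 fatty acid synthesis genes past 2-fold, against 1 without replicate 1 and 1 without replicate 2. Of the 10 cholesterol synthesis genes none was past 2-fold, and 1 was by total count alone. The mice could feed freely, and intake is not given per mouse in the sources used here, so its part in these values was not tested. Gm15441, a long non-coding RNA gene that overlaps Txnip on the opposite strand, had 16.4, 7.98, 33.2 and 3.45 CPM, and Txnip, chosen after its values were seen, had 426, 450, 304 and 294 CPM. The strand setting of the counting is not stated, so reads of the 2 genes cannot be told apart with certainty.

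**Figure D4:**
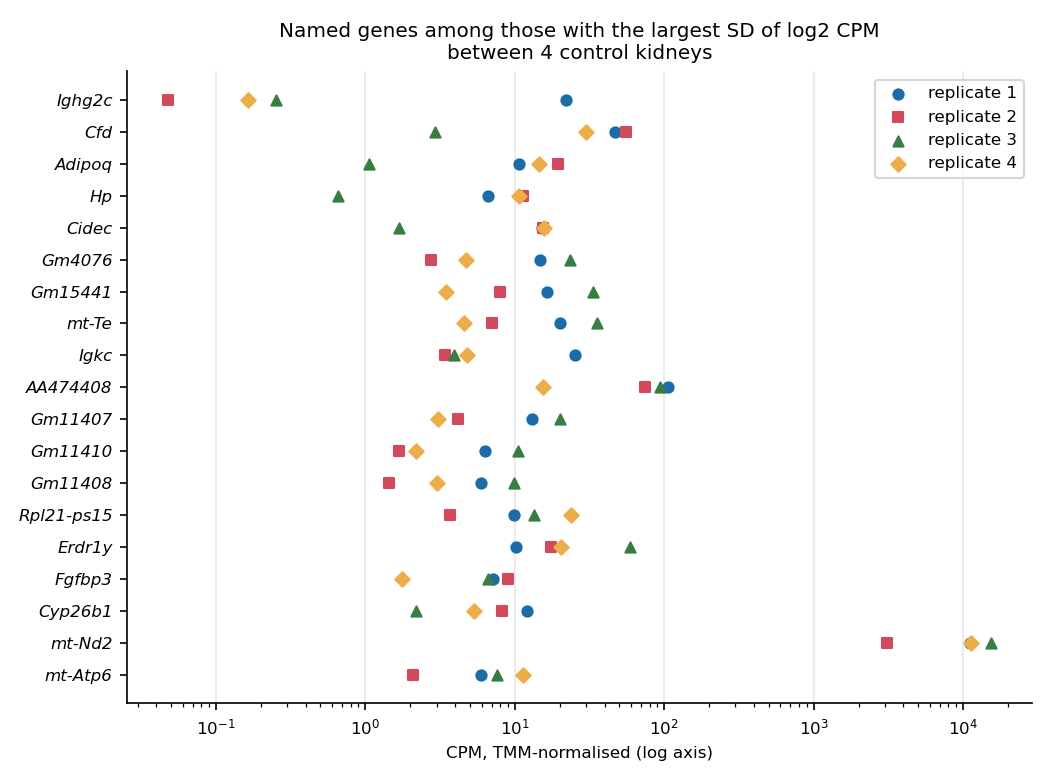
CPM (log axis) of the genes named in the text among those with the largest SD of log2 CPM, with 1 symbol for each of the 4 control mice. Replicate 1 is alone on the right for Ighg2c and Igkc, replicate 3 is alone on the left for Cfd, Adipoq, Hp and Cidec, and replicate 4 is alone on the left for AA474408 and Fgfbp3.

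Other genes among the 20 with the largest spread had less in common. The neighbouring pseudogenes Gm11407 and Gm11410 on chromosome 4 and Gm4076 on chromosome 13 were high in replicates 1 and 3. Gm11408, which lies near Gm11407 and Gm11410, had replicate 2 apart as the lowest. Gm11407 had 13.1, 4.18, 20.2 and 3.06 CPM. The transfer RNA gene mt-Te (20.2, 7.02, 35.8 and 4.59 CPM) had the same order, and poly(A) selection does not target such short RNAs. AA474408, which overlaps a protein-coding gene on the opposite strand and is uncertain for that reason, had 106, 74.6, 94.2 and 15.5 CPM, and Fgfbp3, which encodes a carrier of fibroblast growth factors, 7.18, 9.03, 6.66 and 1.75 CPM. Erdr1y of the Y chromosome had 10.2, 17.6, 58.8 and 20.4 CPM and has a copy on the X chromosome, Erdr1x, chosen after its values were seen, so that its counts are uncertain. Cyp26b1, which breaks down retinoic acid, had 12.0, 8.17, 2.17 and 5.36 CPM. mt-Nd2, mt-Atp6 and the pseudogene Rpl21-ps15 were lowest in replicate 2. Rpl21-ps15 had 9.89, 3.70, 13.4 and 23.8 CPM, and 84.9% of its stretches of 100 bases occur in transcripts of other genes.

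All 12 of the mitochondrially encoded mRNAs above 5 CPM were past 2-fold, with replicate 2 lowest in each, and 1 was past it without replicate 2. The nuclear genes of oxidative phosphorylation did not share that order. Their summed level was 7595, 8253, 7221 and 6632 RPKM, highest in replicate 2, and 6 of 89 genes (6.74%) were past 2-fold. Cox5a had 75.8, 144, 63.1 and 48.3 CPM and Atp5f1e 196, 327, 143 and 124 CPM, both highest in replicate 2, while Atp5pf had 357, 165, 390 and 288 CPM. Without replicate 2 the count was 2, and without replicate 4 it was 3. Of 79 cytosolic ribosomal protein genes 5 were past 2-fold (6.33%), 1 without replicate 2 and 3 without replicate 4. Ribosomal protein genes have many processed copies in the genome, so their counts are uncertain.

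Of all 14572 detected genes, 31.2% were highest in replicate 2. Among the detected genes of the thin limb, the thick ascending limb, principal cells and urothelium, 4 of 5, 6 of 9, 7 of 8 and 3 of 3 were. The 3 urothelial genes reached a mean of 1 CPM only through replicate 2, so the limit itself fixed their count. Lists of other kinds also had more than 31.2%, with 51 of 91 nuclear genes of oxidative phosphorylation (56%), 3 of 5 liver genes and 5 of 10 cholesterol synthesis genes. Several other distal lists had less, with 1 of 6 distal convoluted tubule, 1 of 5 connecting tubule and 1 of 5 shared intercalated genes. Type A intercalated cells had 1 of 4 and type B cells 2 of 4. Exceptions in the first 4 lists were Epha7 of the thin limb (3.01, 3.32, 2.73 and 4.05 CPM) and the water channel gene Aqp4 of principal cells (18.3, 18.6, 15 and 22.3 CPM), highest in replicate 4, and Kcnj1, Cldn16 and Umod of the thick ascending limb, highest in replicate 1. By total count alone Umod was highest in replicate 2. Slc14a2, the urea carrier of the inner medulla, had 36.7, 47.9, 13.4 and 14.3 CPM, and was the only thin limb list gene above 5 CPM. In that list Bst1 (3.78, 8.46, 3.63 and 2.84 CPM) and Fst (2.15, 4.81, 1.72 and 1.81 CPM) were highest in replicate 2 too. Bst1 overlaps Fbxl5 (49 CPM) on the opposite strand, so its level is uncertain. Aqp2 had 54.4, 110, 42.1 and 43.3 CPM and Fxyd4, a regulator of the sodium pump in the collecting duct, 10.6, 23.6, 9.89 and 9.41 CPM. They were the 2 of 8 principal cell genes past 2-fold, and 0 were without replicate 2. In the thick ascending limb list Cldn19, a claudin of magnesium transport (16.1, 27.2, 12.5 and 16.8 CPM), and Ptger3, a prostaglandin receptor (19.8, 34.8, 15.5 and 15.2 CPM), were past 2-fold, 2 of 8 genes, with 1 without replicate 3 and 0 without replicate 2. The 5 urothelial genes, which line the renal pelvis, had a summed level of 3.38, 14.9, 0.979 and 1.29 RPKM. Psca, their most abundant, had 1.25, 8.03, 0.151 and 0.328 CPM, and Upk3a had 0 counts in replicate 3.

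The proximal lists did not share 1 direction in replicate 2. The late list was above the mean of the 4 mice there by its median gene, by 0.201 on the log2 scale. The early list was lowest in replicate 2 by its median gene, 0.256 below the mean of the 4 mice on the log2 scale, and 0 of its 9 genes were past 2-fold. In the shared list Cubn alone was (415, 260, 313 and 529 CPM, 2.03-fold), with 0 genes past 2-fold when replicate 2, 3 or 4 was left out or the libraries were scaled by total count alone. In the late list Slc22a7, an organic anion carrier (194, 220, 121 and 106 CPM), and Cyp7b1, an oxysterol hydroxylase (134, 110, 63.1 and 90.4 CPM), were past 2-fold, 2 of 5 genes, against 1 with each replicate left out in turn. Replicate 3 was lowest in Calb1 and in Trpv5, the calcium channel of the connecting tubule, with 10.2, 8.17, 5 and 10 CPM. These were the 2 of 5 connecting tubule genes past 2-fold, and 0 were without replicate 3. The count was 1 without replicate 1 and with RLE size factors.

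Further members of the cell lists past 2-fold were few. Pvalb had 21.5, 21.2, 12.0 and 8.26 CPM, and it was the 1 of 6 distal convoluted tubule genes that passed, with 0 without replicate 4. Aqp6, an anion channel of type A intercalated cells, had 60.5, 60.7, 30.7 and 25.4 CPM, high in replicates 1 and 2 and low in replicates 3 and 4. All 5 erythroid genes were past 2-fold, with Hba-a2 at 150, 474, 356 and 160 CPM, and the count was 2 without replicate 1 and 3 without replicate 3. Ttr was the 1 of 3 liver list genes, and 0 were without replicate 1 or without replicate 3, while 2 were with mitochondrial and ribosomal RNA genes removed. Ren1 was not past 2-fold without replicate 1 or without replicate 2. In the lists of podocytes, endothelium, smooth muscle and mesangium, fibroblasts, macrophages, intercalated cells of type B and Schwann cells, 0 genes were past 2-fold.

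**Figure D5:**
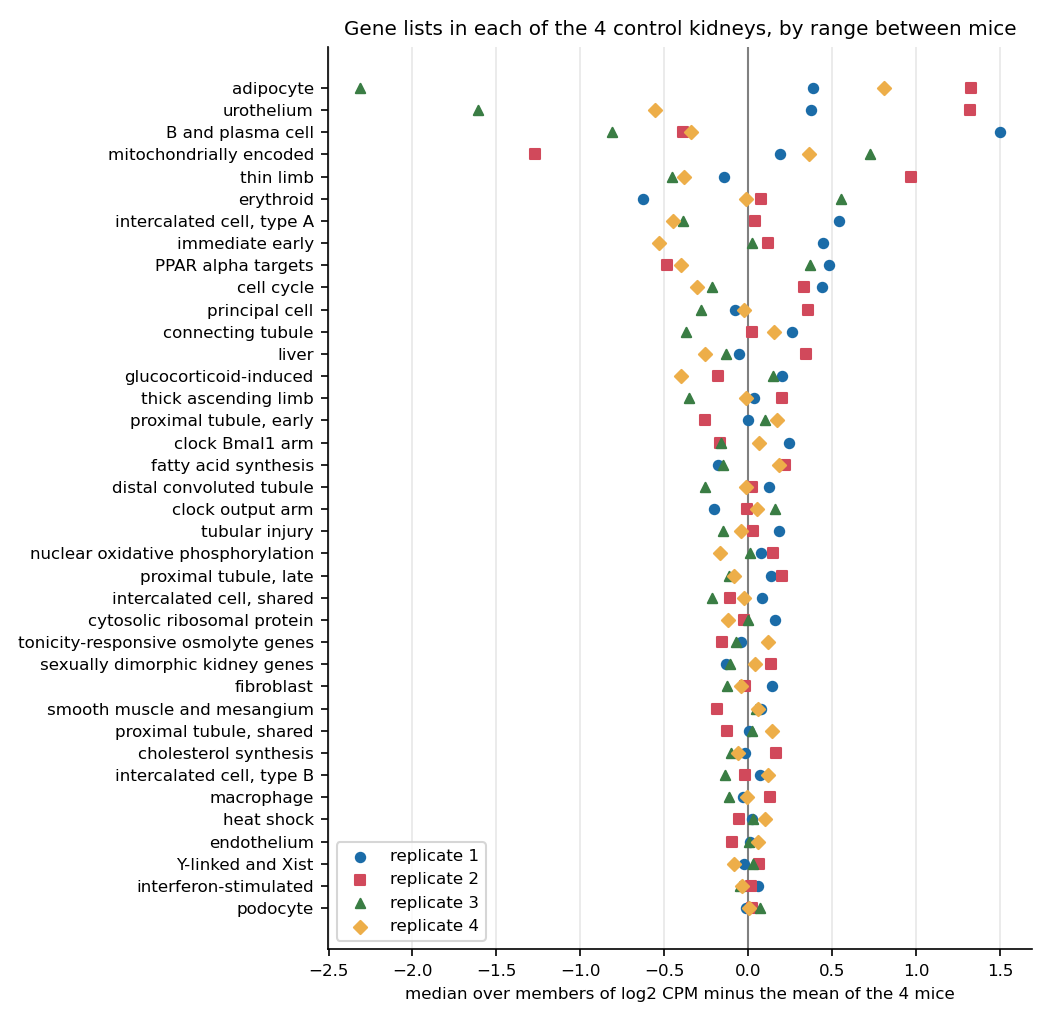
Median over the members of each list with at least 1 CPM of log2 CPM minus the gene's mean over the 4 mice (horizontal axis), with 1 symbol for each mouse and lists ordered by the range between mice. The adipocyte list has the widest range with replicate 3 lowest, the mitochondrially encoded list has replicate 2 lowest, and the podocyte list has the narrowest range.

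Lists of cell states showed where single mice were apart. Of 9 immediate early genes above 5 CPM, which respond within minutes to stimuli, 3 were past 2-fold. Jun had 54.6, 32.9, 36.1 and 23.3 CPM, Junb 9.97, 10.5, 8.08 and 4.32 CPM and Egr1 23.3, 18.4, 15.1 and 7.71 CPM, each lowest in replicate 4. Without replicate 4, 0 were past 2-fold, and without replicate 1 there were 2. Junb overlaps Prdx2 (82.9 CPM) on the opposite strand, so its level is uncertain. Of the 12 detected genes of the list, 9 were highest in replicate 1 (75%), against 22.5% of all detected genes. Fos and Fosb are among these 9 and reached a mean of 1 CPM only through replicate 1, which raises the share. Fos had between 0.656 and 2.62 CPM. Of 7 glucocorticoid-induced genes 3 were past 2-fold, namely Pdk4, Zbtb16 (16, 8.03, 10.5 and 6.02 CPM) and the kinase gene Sgk1 (127, 69.9, 147 and 131 CPM), and 1 without replicate 1, while Fkbp5, a chaperone of the receptor, had 63.3, 78.2, 54.3 and 44.5 CPM. In the list of genes that differ between male and female kidney 3 of 5 were past 2-fold, and 2 with each replicate left out. Prlr, the prolactin receptor, had 30.2, 63.8, 34.9 and 89.5 CPM, Slc7a12 4.04, 5.77, 3.99 and 8.10 CPM and Acsm3 259, 116, 190 and 163 CPM.

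In the clock lists, replicate 1 stood apart in part of the values. Dbp, a strongly rhythmic output gene, was low at 1.46, 2.21, 2.93 and 2.90 CPM, and Bmal1, which peaks in the opposite phase, had 28.7, 20.2, 19.7 and 20.2 CPM. Dbp overlaps Sphk2 (35.2 CPM) on the opposite strand, so its level is uncertain. Of 8 genes of the output arm above 5 CPM none was past 2-fold, and Cry1 (9.71, 7.40, 5.2 and 4.76 CPM) was the 1 of 6 in the Bmal1 arm, with 0 without replicate 1 or replicate 4 and under RLE size factors or total counts. The summed level of the output arm was 44.9 RPKM in replicate 1 and between 55.5 and 57.7 RPKM in the others.

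Injury and stress genes came last. Havcr1, which encodes the injury marker KIM-1, had between 0.433 and 1.25 CPM, and Lcn2, which encodes NGAL, between 0.602 and 1.89 CPM. Spp1, osteopontin, was the most abundant gene of the injury list at 143 ± 26.4 RPKM and is also made by healthy tubules. None of the 3 injury genes above 5 CPM, of 6 interferon-stimulated genes, of 5 heat shock genes or of 5 genes of the tonicity response was past 2-fold. Ifit1, an interferon-induced antiviral gene, had 5.42, 5.43, 5.15 and 5.14 CPM. The cell cycle list had no gene above 5 CPM, and Mki67 of dividing cells had between 3.22 and 6.58 CPM.

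The steadiest genes among those with a mean of at least 50 CPM were Ipo8, Hnrnpa2b1, Tns1, Fam8a1, Sqor, Rbm6, Trappc10, Hnrnpul2, Wwc2 and Golph3. Ipo8, a nuclear import receptor, had 54.8, 54.4, 54.7 and 54.8 CPM, with an SD of 0.00449 on the log2 scale where counting alone would give 0.0432. Tns1, which links integrins to actin, had 1429, 1424, 1448 and 1422 CPM, and Hnrnpa2b1, an RNA-binding protein gene, 714, 707, 714 and 711 CPM. They were picked as the lowest SDs, and an SD below that of counting can arise when 4 values lie together by chance.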

How the data were processed

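The deposited values were gene counts made by the authors, who per the processing notes in the labels checked reads with FastQC 0.11.9, aligned them with STAR 2.7.5c and counted them with HTSeq 1.99.2. CPM, RPKM and log2 values were computed here. The summary lines of each file were left out of the totals: reads without a feature made up 13.2, 16.1, 14.7 and 13.9% and ambiguous reads 4.98, 4.72, 4.92 and 5.19% of uniquely placed reads in replicates 1 to 4. The annotation release, strand setting and any use of molecular tags are not given in the sources used here. Genes were matched by identifier to GENCODE vM39, which held 99% of them.

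Counts were scaled by TMM with edgeR 4.0.16 in R 4.3.3, without a test. RPKM used the union of exons. Spread was the SD, and the difference between the highest and lowest mouse, of log2 CPM with a prior count of 2, for genes with a mean of at least 5 CPM. Past 2-fold means a difference of at least 1. Detected genes had a mean of at least 1 CPM, and the steadiest genes were taken among those of at least 50 CPM. Dixon's ratio with a limit of 0.829 marked a mouse apart from the other 3.

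Genes are named when they are among the 10 nuclear protein-coding genes or the mitochondrial genes with the highest mean RPKM, the 20 with the largest or the 10 with the smallest SD, or members of the fixed lists. Others are marked as chosen after their values were seen. Members and lists were chosen with earlier results of these data known. The alternatives were RLE size factors (also from edgeR), total counts and removal of mitochondrial and ribosomal RNA genes. Further alternatives were other limits and prior counts, TPM, transcript lengths and leaving out each mouse. The canonical length was added after the lengths were seen. On simulated counts with a coefficient of 0.1 the estimate for unchanged genes was 0.1, and 100 of 100 genes with a 4-fold change were past 2-fold. A 4-fold change lies far past the limit, so this does not bear on genes close to 2-fold. Some items are withheld and are not reported here.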

Additional observations from a re-analysis of the deposited data

Results flagged for a closer look

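A mouse was marked when Dixon's ratio, the gap to the nearest mouse divided by the full range, was past its limit for 4 values, which by chance flags about 1 in 20. The values looked at were those of named genes with a mean of at least 1 CPM, list sums and library totals and shares. Of these 203 values, 13 were past it (6.4%), close to the 5.91% of all genes with a mean of at least 5 CPM, and no difference was tested. Replicate 1 was highest for Bmal1 (ratio 0.932, 28.7 CPM against 19.7 to 20.2), Igkc (0.836, 25.4 CPM against 3.41 to 4.76), Nphs1 (0.925, 29.4 CPM against 22.9 to 23.3) and the summed B and plasma cell list (0.886, 59.1 RPKM against 12.2 to 14.6). It was lowest for the summed clock output arm (0.843, 44.9 RPKM against 55.5 to 57.7).

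Replicate 2 was lowest for Slc3a1 (0.885, 192 CPM against 312 to 332). It was highest for Ddx3y (0.898, 111 CPM against 77.5 to 80.4) and Fxyd4 (0.869, 23.6 CPM against 9.41 to 10.6). Replicate 3 was lowest for Cidec (0.985, 1.67 CPM against 15.2 to 15.7), the summed adipocyte list (0.846, 13.3 RPKM against 72.6 to 98.9) and the summed distal convoluted tubule list (0.86, 87.6 RPKM against 117 to 122). Replicate 4 was lowest for the summed adrenal cortex list (0.933, 0.805 RPKM against 0.968 to 0.981) and highest for the summed tonicity list (0.853, 76.4 RPKM against 62 to 64).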

How the results depend on the processing

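The number of detected genes was 34114 instead of 14572 when 1 count in any library was enough. Genes past 2-fold numbered 438, and between 173 and 340 with 1 mouse left out, where 173 was without replicate 2 and 231 without replicate 4. The number was 1369 at a mean of at least 1 CPM and 189 at 20 CPM. The median SD of 0.175 became 0.200 at 1 CPM, and lay between 0.134 and 0.183 with 1 mouse left out. The 10 most counted nuclear genes without ribosomal RNA held 7.87% of all counts and 9.71% of the counts of such genes. The cause of the drop without replicate 2 or 4 was not tested. RLE size factors, total counts and prior counts gave between 408 and 467 genes past 2-fold, and removal of mitochondrial and ribosomal RNA genes gave 485. Of 30 cell lists, 15 or 16 lay above the median detected gene under every setting. Another length or TPM moved 36 of 141 list medians, 42 of 141 list sums and 153 of 462 gene levels, taken relative to the median detected gene, by more than their SD between mice. With 4 mice of 1 group, spread between mice holds differences in dissection, library and biology together, which cannot be told apart. No paired analysis was possible because the libraries belong to 1 group.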
